A study of Mus musculus with 6 samples.

Results

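Zfp51, Zfp52, Zfp53, Zfp54, Zfp760, Zfp820, Zfp944 and Zfp946 are 8 zinc finger genes that lie within one stretch of mouse chromosome 17, and they are 8 of the 55471 genes counted in the hippocampal RNA of control and CBP-deficient mice. They were chosen from the measured contrast between the same libraries described here, starting from Zfp54 and taking further zinc finger genes around it, so that their differences between genotypes are given as descriptions without a test. The libraries compared here are 3 from CBP-ifKO mice and 3 from Control mice. The study asked which hippocampal genes depend on CBP, the lysine acetyltransferase and transcriptional coactivator encoded by Crebbp. It accepted only genes retrieved in each of 3 independent RNA-seq screens, whereas the calls given here rest on these libraries alone. CBP-ifKO mice carried floxed Crebbp alleles and the Camk2a-creERT2 transgene, in which the Camk2a promoter drives an inducible Cre recombinase in excitatory neurons of the forebrain. Control mice were littermates without the transgene. All animals were of the C57BL/6 strain by the labels (C57BL/6J by the study's methods), were 3 to 6 months old and had received tamoxifen by gavage 5 times at 20 mg/mL in oil. The sample descriptions of the Control libraries nevertheless name the driver. Esr1, part of whose sequence is built into creERT2, was at 6.07 ± 0.362 CPM (counts scaled by library total and TMM factor) in the Control libraries and at 66.7 ± 2.91 CPM in the mutant ones (SD, n = 3). The model has limits that bear on all values below. Recombination is confined to the neurons that express the driver while whole hippocampus was sequenced, the recombined allele still encodes a truncated CBP, and a sample may hold the pooled hippocampi of several females according to the study's methods, so that the spread between libraries need not be that between animals.

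Zinc finger proteins of the C2H2 type bind DNA through tandem repeats in which a pair of cysteines and a pair of histidines hold a zinc ion. Many of them also carry a KRAB domain, which recruits the co-repressor TRIM28 and, through it, the histone methyltransferase SETDB1 and heterochromatin proteins, and this family is best known for silencing transposable elements. Its genes arose by repeated duplication, sit in clusters and resemble each other closely, and the targets of most single members, those described here included, are little known.

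The members share the finger repeat, and one finger of each shows how close and how distinct they are in the sequence that reads were assigned to. Shown are the DNA of the first canonical finger of Zfp54 and, for each other gene, the finger that matched it best, read on the coding strand of GRCm38 from the last exon of each gene. Capitals mark the codons of the zinc-binding cysteines and histidines. The finger of Zfp54 lies at chr17:21433882-21433950 on the plus strand, in exon 5 of 5.
Zfp54: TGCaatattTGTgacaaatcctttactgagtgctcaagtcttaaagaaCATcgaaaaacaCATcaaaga
Zfp51: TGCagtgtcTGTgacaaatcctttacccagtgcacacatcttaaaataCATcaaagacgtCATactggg
Zfp53: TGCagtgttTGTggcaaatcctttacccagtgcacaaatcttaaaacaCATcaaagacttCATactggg
Zfp52: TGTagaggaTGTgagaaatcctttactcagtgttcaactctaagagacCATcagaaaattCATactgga
Zfp760: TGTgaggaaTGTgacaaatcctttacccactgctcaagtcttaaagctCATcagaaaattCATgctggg
Zfp820: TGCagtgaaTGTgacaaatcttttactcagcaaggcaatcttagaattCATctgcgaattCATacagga
Zfp944: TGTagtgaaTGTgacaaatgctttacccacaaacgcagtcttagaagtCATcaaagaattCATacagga
Zfp946: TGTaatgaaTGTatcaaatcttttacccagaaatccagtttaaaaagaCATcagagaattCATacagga
Of the 69 bases, 50 were identical to Zfp54 in Zfp53, 49 in Zfp51 and in Zfp760, 48 in Zfp52, 44 in Zfp946 and 43 in Zfp820 and in Zfp944. The other fingers lie at chr17:21463854-21463922 (Zfp51), chr17:21508472-21508540 (Zfp53), chr17:21561629-21561697 (Zfp52), chr17:21723565-21723633 (Zfp760) and chr17:22454996-22455064 (Zfp946) on the plus strand, and at chr17:21818969-21819037 (Zfp820) and chr17:22339140-22339208 (Zfp944) on the minus strand.

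Library totals ran from 10199008 to 14950257 counts, so that 1 count in a library was worth between 0.0657 and 0.0992 CPM. Crebbp, the targeted gene, fell from 191.2 ± 30.1 CPM in Control to 98.4 ± 10.8 CPM (SD, n = 3), a log2 change of -0.96 ± 0.10 (SE) with an adjusted p of 3.6e-05 in edgeR, although these gene-wide counts include exons outside the floxed part. In edgeR's quasi-likelihood test, 1149 of 17981 genes passed the threshold of an adjusted p under 0.05. Of the marker lists used to describe the tissue, those of dentate granule cells, CA1, CA3 and interneurons had lower summed levels in every CBP-ifKO library than in any Control library, and the lists of excitatory neurons, glia, vessels, choroid plexus and neighbouring brain regions overlapped between genotypes. In bulk tissue, fewer cells of a type and less marker RNA per cell cannot be told apart.

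Zfp54 (ENSMUSG00000023882) encodes a KRAB zinc finger protein and occupies chr17:21423227-21435640 on the plus strand. It was among the least abundant of the 8 genes in Control. Control replicates 1 to 3 gave raw counts of 12, 15 and 8 and CBP-ifKO replicates 1 to 3 gave 15, 62 and 38, which add up to 35 and 115. Scaled to CPM, the Control libraries were at 1.13, 1.29 and 0.793 and the CBP-ifKO libraries at 1.45, 4.07 and 3.13. The groups did not overlap, but CBP-ifKO replicate 1 stood only slightly above the highest Control library while the other two CBP-ifKO libraries were far above it. The Control mean of 1.07 ± 0.252 CPM compared with a CBP-ifKO mean of 2.89 ± 1.33 CPM (SD, n = 3). The log2 fold change of 1.46 ± 0.36 (SE) was the largest among the 8 genes. Counting error alone amounts to 16.9% of the summed Control counts of this gene. With each library left out in turn the log2 fold change lay between 1.11 (CBP-ifKO replicate 2 left out) and 1.74 (CBP-ifKO replicate 1 left out).

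Zfp51 (ENSMUSG00000023892) follows Zfp54 at a distance of 14.7 kb on the same strand, at chr17:21450374-21465587. It is a KRAB zinc finger gene as well. It was counted 58, 67 and 65 times in Control and 74, 164 and 109 in CBP-ifKO, or 5.45, 5.75 and 6.45 CPM against 7.17, 10.8 and 8.97 CPM. As for Zfp54, the groups did not overlap, CBP-ifKO replicate 2 was the highest library and CBP-ifKO replicate 1 the lowest of the mutant libraries. Mean levels were 5.88 ± 0.513 CPM for Control and 8.97 ± 1.80 CPM for the mutants (SD, n = 3), with a log2 fold change of 0.63 ± 0.17 (SE).

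Zfp53 (ENSMUSG00000057409, chr17:21488998-21510473) and Zfp52 (ENSMUSG00000051341, chr17:21535539-21562601) complete a run of 4 genes on the plus strand. Zfp53 was counted 123, 117 and 114 times in Control and 103, 209 and 170 times in CBP-ifKO, which gave 11.5, 10.05 and 11.3 CPM against 9.98, 13.7 and 14.0 CPM. CBP-ifKO replicate 1 was the lowest of the 6 libraries for Zfp53, so the groups overlapped, and the mean was 11.0 ± 0.805 CPM without and 12.6 ± 2.24 CPM with the deletion (SD, n = 3), and the log2 fold change was 0.21 ± 0.14 (SE). For Zfp52 the counts were 134, 112 and 95 in Control and 159, 201 and 147 in CBP-ifKO. In CPM these were 12.6, 9.62 and 9.42 against 15.4, 13.2 and 12.1, with means of 10.5 ± 1.77 and 13.6 ± 1.69 CPM (SD, n = 3) and a log2 fold change of 0.36 ± 0.14 (SE). The order of the mutant libraries was reversed here relative to Zfp53. CBP-ifKO replicate 1 was the highest library for Zfp52, and only CBP-ifKO replicate 3 fell below a Control library.

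Zfp760 (ENSMUSG00000067928, chr17:21707741-21725636), 145.1 kb further along the plus strand, had the highest counts of the 8 genes when summed over the 6 libraries, although Zfp944 was counted more often in CBP-ifKO replicate 1. The counts of Zfp760 were 221, 248 and 247 in Control and 212, 541 and 357 in CBP-ifKO, equal to 20.7, 21.3 and 24.5 CPM against 20.5, 35.6 and 29.4 CPM. CBP-ifKO replicates 2 and 3 stood above all Control libraries, whereas CBP-ifKO replicate 1 was below them all. The Control mean was 22.2 ± 2.02 CPM and the mutant mean 28.5 ± 7.54 CPM (SD, n = 3), with a log2 fold change of 0.38 ± 0.15 (SE), and the difference of the means was smaller than the SD of the mutant libraries.

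The remaining members are alike in coding sequence, at 81.2% to 83.3% of aligned bases. Zfp820 (ENSMUSG00000069743, chr17:21816885-21845772, minus strand) was barely detected, with 7, 9 and 12 counts in Control and 12, 23 and 12 in CBP-ifKO. Its levels of 0.657, 0.773 and 1.19 CPM overlapped with 1.16, 1.51 and 0.987 CPM in CBP-ifKO. The means were 0.873 ± 0.280 and 1.22 ± 0.267 CPM (SD, n = 3), and the log2 fold change was 0.51 ± 0.36 (SE). Counting error on the 28 Control counts of Zfp820 alone is 18.9%.

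Zfp944 (ENSMUSG00000033972, chr17:22337989-22361400, minus strand) begins 492.2 kb beyond Zfp820. It had 202, 229 and 165 counts in Control and 222, 314 and 254 in CBP-ifKO, or 19.0, 19.7 and 16.4 CPM against 21.5, 20.6 and 20.9 CPM. Its mean level was 18.3 ± 1.74 CPM without and 21.02 ± 0.450 CPM with the deletion (SD, n = 3), and the log2 fold change was 0.19 ± 0.10 (SE). Zfp946 (ENSMUSG00000071266, chr17:22424222-22456689, plus strand) had 177, 196 and 158 counts in Control and 200, 302 and 236 in CBP-ifKO, or 16.6, 16.8 and 15.7 CPM against 19.4, 19.8 and 19.4 CPM. The respective means were 16.4 ± 0.619 and 19.6 ± 0.259 CPM (SD, n = 3), with a log2 fold change of 0.26 ± 0.098 (SE). For both genes all CBP-ifKO libraries lay above all Control libraries, and the 3 mutant libraries were closer to each other, relative to their mean, than for the other members. The log2 fold changes were small beside that of Zfp54.

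**Figure D1:**
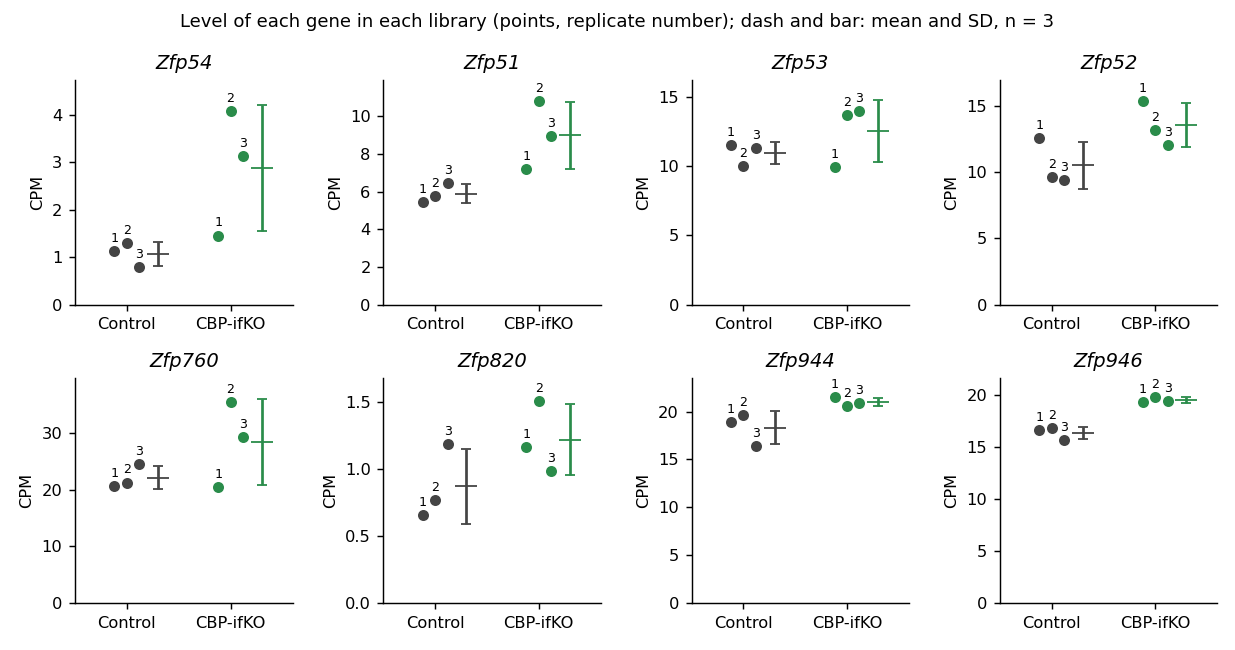
Level of each gene (y axis, CPM after TMM scaling, starting at 0) in the 3 Control and 3 CBP-ifKO libraries, each point labelled with its replicate number and the dash and bar giving mean and SD (n = 3). CBP-ifKO replicate 1 sits near the Control points for Zfp54, Zfp53 and Zfp760, at 1.45, 9.98 and 20.5 CPM, while for Zfp944 and Zfp946 the 3 CBP-ifKO points lie close together above the Control points.

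All 8 genes passed the filter on low counts, and each had a log2 fold change above 0, against 49.3% of all genes tested. The median was 0.37, with a range from 0.19 to 1.46. Zfp54 and Zfp51 were past the threshold (2 of 8, both higher in CBP-ifKO), where 6.39% of all genes passed it, 1.40% as higher and 4.99% as lower. DESeq2 left 1 of the 8, Zfp54, past the same threshold, where it called 5.84% of the genes for which it gave an adjusted p. For 4 members, Zfp54, Zfp51, Zfp944 and Zfp946, every CBP-ifKO library was above every Control library, as for 11.8% of all genes. Other tested Zfp genes were separated in this way in 6 of 9 cases within the stretch and 117 of 312 on other chromosomes. On the whole of chromosome 17 it was 14 of the 38 that are no members. Separation in the opposite direction was seen for 0 of the 9, 18 of the 312 and 0 of the 38. Because the same contrast chose the 8 members, nothing is read from these shares. CBP-ifKO replicate 2 was the highest of the 6 libraries for 5 members, CBP-ifKO replicate 1 for 2 and CBP-ifKO replicate 3 for 1. Over all genes tested, these libraries were the highest for 18.7%, 13.7% and 14.3%, in that order. The lowest library was Control replicate 3 for 4 members and Control replicate 1 or CBP-ifKO replicate 1 for 2 members each.

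Added together, the 8 genes reached 87.7, 85.3 and 85.7 CPM in Control and 96.6, 119.4 and 108.9 CPM in CBP-ifKO. The Control sums lay within a narrow band and all mutant sums were above it. Their means were 86.2 ± 1.29 and 108.3 ± 11.4 CPM (SD, n = 3), a ratio of 1.26. The sum over the 39 other Zfp genes of chromosome 17 went from 1107 ± 41.9 to 1231 ± 30.1 CPM, a ratio of 1.11, and that over 370 Zfp genes elsewhere from 9879 ± 176 to 10488 ± 172 CPM, a ratio of 1.06. In both of these lists, too, every CBP-ifKO sum was above every Control sum. The lowest CBP-ifKO and highest Control sums were 1212 and 1147 CPM on chromosome 17, and 10334 and 10038 CPM elsewhere. The ratio of the members was 1.25 without Zfp760, their most counted gene.

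The members differed more from each other than between genotypes when levels were set per kilobase of exon. In Control the order was Zfp944 (6.58 ± 0.625 CPM per kb), Zfp760 (5.27 ± 0.481), Zfp946 (4.67 ± 0.177), Zfp53 (3.58 ± 0.263), Zfp52 (3.33 ± 0.559), Zfp51 (2.29 ± 0.199), Zfp54 (0.378 ± 0.0891) and Zfp820 (0.235 ± 0.0754 CPM per kb; SD, n = 3). The Control libraries of Zfp53 and Zfp52 overlapped, as did those of Zfp54 and Zfp820, and all other neighbours in this order were separate. In CBP-ifKO the level of Zfp54 was 1.02 ± 0.469 CPM per kb, still below that of Zfp51 (3.49 ± 0.701), and Zfp52 (4.29 ± 0.533) and Zfp53 (4.10 ± 0.732) exchanged places with overlapping libraries. Zfp760 (6.77 ± 1.79) overlapped there with both Zfp944 (7.55 ± 0.162) and Zfp946 (5.58 ± 0.0739 CPM per kb). Zfp54 thus remained the second least abundant member in both genotypes.

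The profile of Zfp54 over the 6 libraries was compared with that of 17432 tested genes at a mean of at least 1 CPM, by the root mean square difference of log2(CPM + 0.5) values centred on each gene's mean. Since Zfp54 was chosen for its difference, likeness to it is a description. The closest gene was Snord49b, a small nucleolar RNA (0.201; 1.94 ± 0.853 CPM and 4.97 ± 2.41 CPM in the respective genotypes), followed by Il27ra, which encodes a subunit of the interleukin-27 receptor (0.238), Tex15, a germ cell gene required for meiosis in males (0.310), Zfp459, a zinc finger gene of chromosome 13 (0.317; 1.13 ± 0.301 and 2.87 ± 0.226 CPM), and the antisense transcript AC090479.2 (0.326). Most of these genes are low like Zfp54, so that counting error is large in each. Tex15 had more counts, 487 over the 6 libraries against 150 for Zfp54. Among the members, Zfp51 came 26th (0.376) and Zfp760 111th (0.435), both high in CBP-ifKO replicate 2. The others ranked between 741 (Zfp53) and 2942 (Zfp52). Among these, Zfp946 (1193) and Zfp820 (2034) were also highest in CBP-ifKO replicate 2.

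The 8 genes span chr17:21423227-22456689, and in chromosomal order their log2 fold changes were 1.46 (Zfp54), 0.63 (Zfp51), 0.21 (Zfp53), 0.36 (Zfp52), 0.38 (Zfp760), 0.51 (Zfp820), 0.19 (Zfp944) and 0.26 (Zfp946). The values did not follow one order along the stretch, and a relation to position was not tested. Directly before Zfp54 lies Zfp677, the nearest tested gene on that side, with mean levels of 3.55 CPM (Control) and 4.53 CPM (CBP-ifKO) and an adjusted p of 0.355 in edgeR (log2 fold change 0.38 ± 0.22, SE). The nearest tested gene after it is Zfp51. Within the stretch 9 further Zfp genes were tested, of which 8 had a log2 fold change above 0 (median 0.25). Of these, 2 passed the threshold, where 6.39% of all genes passed it, 1.40% as higher. Zfp229, which lies between Zfp760 and Zfp820, rose from 6.82 ± 1.06 to 10.6 ± 1.52 CPM (SD, n = 3; adjusted p of 0.0207 in edgeR; log2 fold change 0.64 ± 0.16, SE). Zfp942 rose from 39.1 ± 0.722 to 48.3 ± 3.65 CPM (adjusted p of 0.0245 in edgeR; log2 fold change 0.31 ± 0.077, SE). Zfp983, between Zfp52 and Zfp760, was the exception in direction, with a mean of 20.5 CPM for Control and 18.3 CPM for the mutants (adjusted p of 0.647 in edgeR). Over all 18 tested genes in the stretch that are no members, 15 had a log2 fold change above 0, with a median of 0.33. The threshold was passed by 2 of them, namely Zfp229 and Zfp942. Above 0 were also 49.3% of all genes tested and 75.3% of the Zfp genes tested on other chromosomes.

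**Figure D2:**
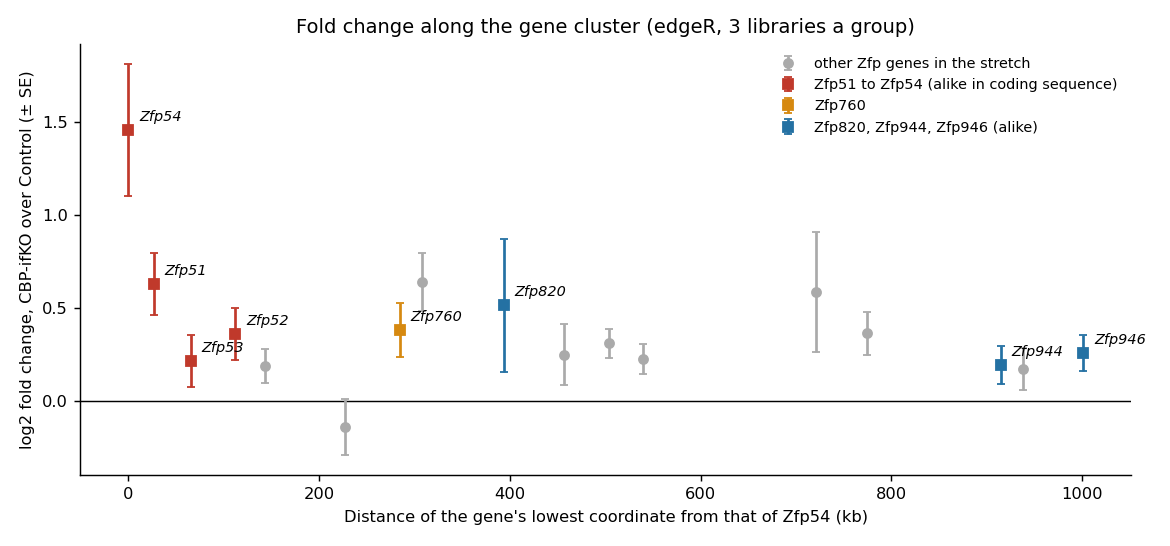
Log2 fold change of CBP-ifKO over Control (y axis, bars ± SE, 3 libraries a group) against the distance of each gene's lowest coordinate from that of Zfp54 (x axis, kb), with members as coloured squares and the other Zfp genes of the stretch in grey. Zfp54 at 1.46 stands above all others, Zfp229 (grey, beside Zfp760) and Zfp51 reach 0.64 and 0.63, and Zfp983 is the only point below 0.

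Zfp genes outside the stretch were measured in the same libraries and the same contrast. Each Zfp list holds every gene whose symbol begins with Zfp and a digit, and was not restricted to KRAB or protein-coding genes. The median G and C content of the tested genes was 45.7% on other chromosomes and 38.6% for the members. On the rest of chromosome 17, 22 of 29 tested Zfp genes had a log2 fold change above 0, with a median of 0.15, and 1 of them, Zfp952, passed the threshold (22.7 ± 0.833 to 29.2 ± 1.34 CPM, SD, n = 3; adjusted p of 0.0196 in edgeR; log2 fold change 0.37 ± 0.088, SE). On other chromosomes 235 of 312 (75.3%) were above 0, also with a median of 0.15, where 49.3% of all genes were above 0. Of these 312 genes, 22 passed the threshold (7.05%), 19 of them higher and 3 lower. The median of all genes was -0.0033. Of the 38 tested Zfp genes of chromosome 17 that are no members, 3 passed the threshold (7.89%) and all 3 were higher, where 1.40% of all genes passed it as higher and 6.39% in either direction. No set test was run on these lists.

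KRAB zinc finger proteins act through a common set of partners, and none of the partner transcripts tested passed the threshold in edgeR. Trim28, which encodes the co-repressor bound by KRAB domains, had a mean of 95.0 ± 7.31 CPM for Control and 95.3 ± 4.21 CPM for CBP-ifKO (SD, n = 3; adjusted p of 0.993 in edgeR; log2 fold change 0.0018). Setdb1, the histone H3 lysine 9 methyltransferase of the same complex, was at 71.1 ± 2.98 and 70.6 ± 0.821 CPM (adjusted p of 0.957 in edgeR; log2 fold change -0.010). Of 25 listed partner genes 23 were tested and 0 passed the threshold in edgeR, where 6.39% of all genes did. An unadjusted p under 0.05 in edgeR was reached by 5 of the 23, and by 3816 of all 17981 genes. In DESeq2 and in limma-voom 0 partner genes passed the threshold. The log2 fold changes of the partner genes in edgeR ran from -0.13 to 0.25 (median 0.10), and 18 were above 0, against 49.3% of all genes.

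**Figure D3:**
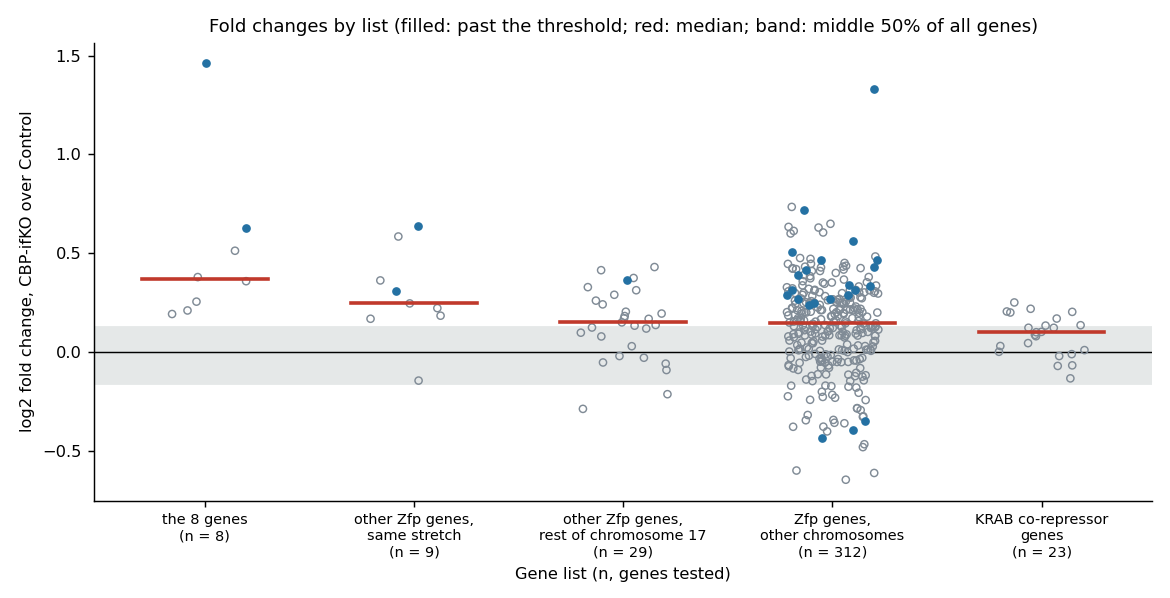
Log2 fold change of CBP-ifKO over Control (y axis) for the tested genes of 5 lists (x axis), each point a gene, filled where past the threshold, with the median in red and the middle 50% of all genes as a grey band. The medians are 0.37 for the 8 genes, 0.25 and 0.15 for the other Zfp genes of chromosome 17 inside and outside the stretch, 0.15 for Zfp genes elsewhere and 0.10 for the co-repressor genes.

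Duplicated genes can exchange reads, and the members fell into kinship groups by coding sequence. Zfp51, Zfp52, Zfp53 and Zfp54 shared 77.4% to 85.4% of aligned coding bases with each other, the closest pair being Zfp51 and Zfp53, and Zfp54 was 82.8% identical to Zfp53 and 82.1% to Zfp51. Zfp820, Zfp944 and Zfp946 formed a second group at 81.2% to 83.3%. Zfp760 stood apart, with at most 73.6% to any other member. Within the first group the log2 fold changes ran from 0.21 in Zfp53, the gene closest to Zfp54 in sequence, to 1.46 in Zfp54. Exchange of reads between the members was not tested. All 8 coding sequences matched a KRAB box pattern. They encode 12 (Zfp54), 18 (Zfp51), 15 (Zfp53), 14 (Zfp52), 16 (Zfp760), 12 (Zfp820), 11 (Zfp944) and 11 (Zfp946) canonical fingers in proteins of 492 to 781 residues, the shortest from Zfp944 and the longest from Zfp51.

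**Figure D4:**
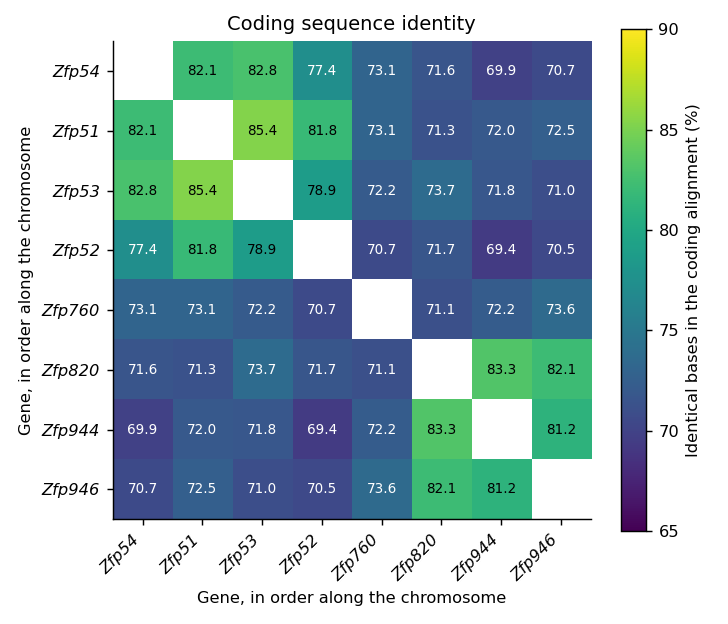
Identical bases (%, colour and printed number) in the coding alignment of each pair of members, with genes in chromosomal order on both axes. Zfp54, Zfp51, Zfp53 and Zfp52 form a block of 77.4% to 85.4%, Zfp820, Zfp944 and Zfp946 a block of 81.2% to 83.3%, and pairs across blocks stay between 69.4% and 73.7%.

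Words of 50 bases, the length of the reads, were compared between annotated transcripts, without mapping any reads. The share of 50-base words found in the annotated transcripts of no other gene was 94.7% for Zfp54, 97.1% for Zfp51, 99.5% for Zfp53, 99.1% for Zfp52, 99.4% for Zfp760, 96.8% for Zfp820, 89.6% for Zfp944 and 98.3% for Zfp946. Zfp944 had the lowest share, and it shared 237 words with Zfp942, its most frequent partner. Both strands were searched. Of the 2874 words of Zfp54, 2721 were found in no other gene, and 137 were shared with Gm49691, an antisense transcript at the same locus. The rest of the genome outside annotated transcripts was not searched. Zfp54 overlaps on 210 exon bases (7.42% of its exons) with Gm49691 on the opposite strand, and whether counting used strand was not stated. Gm49691 itself received 0 counts in the Control libraries and 0, 1 and 1 in CBP-ifKO replicates 1 to 3. Zfp52 overlaps on 11 bases with 9330136K24Rik, also on the opposite strand, and the other 6 members overlap no annotated exon. Dividing by uniquely worded exon length in place of all exon length left the order of the Control levels as it was.

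Promoter sequences were available from RefSeq (GRCm38.p6) for 7 of the 8 genes, all but Zfp51, as windows of 250 bases before and 50 bases after the gene start. The pairs below are shown because they come from both kinship groups and from both ends of the stretch, and because the first holds the gene with the largest difference. Capitals mark the longest run of bases shared within a pair, read in the direction of the gene.
Zfp54, chr17:21422977-21423276, plus strand: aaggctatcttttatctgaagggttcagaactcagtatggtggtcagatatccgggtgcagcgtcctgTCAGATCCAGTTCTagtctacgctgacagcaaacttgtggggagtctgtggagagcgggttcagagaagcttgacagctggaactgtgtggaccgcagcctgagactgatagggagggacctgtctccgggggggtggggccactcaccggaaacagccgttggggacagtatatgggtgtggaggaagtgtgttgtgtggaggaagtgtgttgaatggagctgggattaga
Zfp53, chr17:21488738-21489037, plus strand: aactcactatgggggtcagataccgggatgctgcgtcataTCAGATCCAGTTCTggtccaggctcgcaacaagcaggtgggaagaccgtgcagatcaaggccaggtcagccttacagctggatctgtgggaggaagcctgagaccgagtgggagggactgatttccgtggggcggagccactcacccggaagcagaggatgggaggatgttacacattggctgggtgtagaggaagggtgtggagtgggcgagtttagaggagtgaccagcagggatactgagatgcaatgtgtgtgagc
Zfp944, chr17:22361351-22361650, minus strand: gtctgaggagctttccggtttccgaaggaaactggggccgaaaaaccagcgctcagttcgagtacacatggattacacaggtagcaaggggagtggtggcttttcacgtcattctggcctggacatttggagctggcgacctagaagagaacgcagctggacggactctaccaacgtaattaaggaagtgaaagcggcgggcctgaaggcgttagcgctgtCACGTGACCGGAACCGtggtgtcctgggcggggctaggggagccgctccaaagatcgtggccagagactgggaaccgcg
Zfp946, chr17:22423952-22424251, plus strand: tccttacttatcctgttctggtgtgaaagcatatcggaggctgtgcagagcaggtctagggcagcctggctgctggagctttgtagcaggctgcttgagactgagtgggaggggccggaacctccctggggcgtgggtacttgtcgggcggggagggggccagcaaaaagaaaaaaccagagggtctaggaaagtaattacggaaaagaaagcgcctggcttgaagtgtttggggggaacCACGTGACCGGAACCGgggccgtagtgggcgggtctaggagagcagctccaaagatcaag
The Zfp54 and Zfp53 windows were identical at 74.3% of 269 aligned bases, with a longest shared run of 14 bases, and those of Zfp944 and Zfp946 at 70.5% of 258 aligned bases, with a run of 16 bases. The start of the second run, CACGTGACC, also occurred in the window of Zfp820. It was thus found in 3 of 7 member promoters and, on either strand, in 1.12% of 32544 promoters of the same length, where the motif was picked after these sequences had been seen.

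The full cAMP response element TGACGTCA, at which CREB recruits CBP, was searched on both strands. It was found in 0 of the 7 promoters and in 1.80% of all promoters, and the shorter TGACG, which the full element contains, in 2 of 7 (Zfp53 and Zfp944) and in 20.9% of all promoters. The window of Zfp54 held neither motif. A missing match says only that these letters are not in this window.

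The exons of the members were poorer in G and C than those of most genes, from 36.4% in Zfp820 to 40.01% in Zfp54, against a median of 48.3% over all genes. Fold changes followed base composition across the transcriptome, with a median log2 fold change of 0.072 in the tenth of genes with the least GC and of -0.19 in the tenth with the most. With the trends on GC content and gene length removed, the median over the 8 members was 0.29 in place of 0.37 and that over the other Zfp genes of chromosome 17 was 0.12 in place of 0.18. For Zfp genes on other chromosomes it was 0.11 in place of 0.15. All 8 members then still had log2 fold changes above 0, and Zfp54 alone was past the threshold, where 277 of all genes passed it as higher and 861 as lower.

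Markers of several neuronal classes moved with the genotype as well. The summed level of 5 CA1 markers was 455 to 463 CPM in Control and 304 to 329 CPM in CBP-ifKO. Of these 5, 4 passed the threshold as lower, where 4.99% of all genes did. The summed level of 5 dentate granule cell markers was 273 to 311 and 240 to 269 CPM (3 lower). That of 5 CA3 markers was 339 to 399 and 286 to 313 CPM (2 lower), and that of 6 interneuron markers 529 to 553 and 473 to 503 CPM (2 lower). The dentate list includes C1ql2, a transcript the study names among those reduced in CBP-ifKO. No marker of any list was at 0 in all libraries. For 5 markers each of excitatory neurons, astrocytes, oligodendrocytes, microglia, endothelium, choroid plexus, thalamus and striatum the summed levels overlapped between genotypes, with 1 excitatory marker lower and 1 striatal marker higher past the threshold. The part of cell composition in the levels of the zinc finger genes was not tested.

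The direction of the differences was the same under each setting tried, whereas the calls were not. Under 17 other settings, the log2 fold change of each member remained above 0 wherever it could be computed, and Zfp54 had the largest value in each of the 16 that retained it. Zfp54 was not past the threshold in limma-voom or with Control replicate 3 or either of CBP-ifKO replicates 2 and 3 left out, and it was removed by a minimum of 10 counts in every library. Zfp51 was not past it in DESeq2, with GC and length trends removed, or with any one of Control replicates 1 and 3 and CBP-ifKO replicates 2 and 3 left out. With any one of these libraries left out, 76 to 179 of all genes passed the threshold as higher, in place of 252. As lower, 416 to 790 passed the threshold, in place of 897. Zfp760 passed it without a filter on low counts and without CBP-ifKO replicate 1, where its log2 fold change was 0.56. Zfp52, Zfp53, Zfp820, Zfp944 and Zfp946 did not pass it under any setting.

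**Figure D5:**
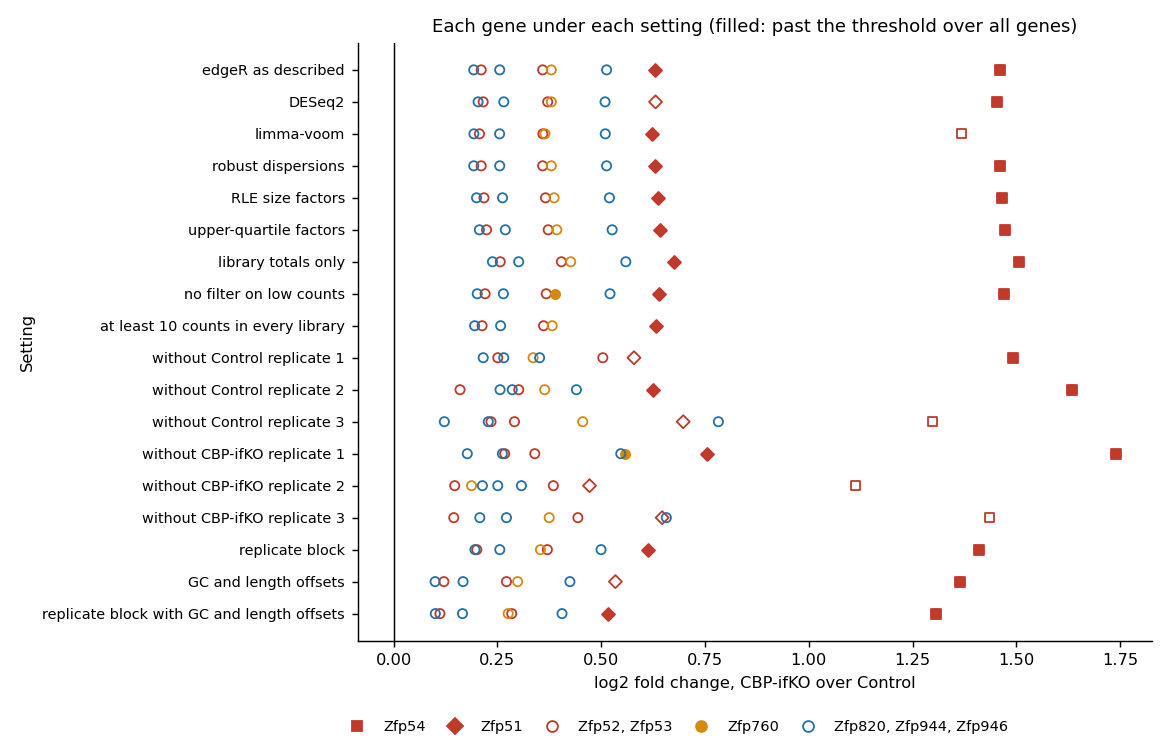
Log2 fold change of CBP-ifKO over Control (x axis) of each member under the edgeR fit and 17 other settings (y axis), filled where past the threshold over all genes. Every point lies to the right of 0, and Zfp54 ranges from 1.11 to 1.74.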

How the data were processed

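Total RNA from mouse hippocampus was sequenced in 6 single-end libraries with 50 bp reads. The authors trimmed reads with Trim Galore 0.6.4, aligned them with STAR 2.6.1 to mm10 (GRCm38), kept reads of mapping quality above 10 and used Rsubread on Ensembl exons. The values deposited are raw counts per gene, not normalized, and strand use was not stated. Groups and replicate numbers came from the sample titles. The 8 genes, and all lists beside them, were chosen with earlier results of these data known.

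Symbols, coordinates and exons came from a GENCODE annotation of GRCm38, which held 99.57% of the 55471 identifiers. Differences were fitted over the whole table with edgeR 4.0.16 (R 4.3.3; TMM factors, filterByExpr at 10 counts and a total of 15, quasi-likelihood F-test, Benjamini-Hochberg adjustment over 17981 genes, threshold 0.05). The SE is the log2 fold change divided by the square root of F. For the 8 genes no p-value is given. CPM are TMM-scaled. Total counts of 10199008 to 14950257 per library limit the precision of genes with few counts, and counting errors given cover counting only. Replicates differed by more than sampling noise (chi-square per degree of freedom at least 2.49).

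Alternatives were DESeq2 1.42.0 (the tool of the study; adjusted p of NA left as such), limma-voom 3.58.1, robust dispersions, scaling by RLE, by upper quartiles or by totals, no low-count filter, a floor of 10 counts per library, omission of each library, a replicate block, offsets for GC and length (natural splines, 5 degrees of freedom), and these offsets together with the block. Fingers were found in translated coding sequences by the spacing of cysteines and histidines. Named beside the 8 genes were Crebbp, Trim28, Setdb1, co-repressor, neighbouring and other chromosome 17 Zfp genes past the threshold, the nearest tested genes to Zfp54 and the 5 genes most like it. Esr1, Zfp983, Gm49691 and 9330136K24Rik were named after their values were seen.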

Additional observations from a re-analysis of the deposited data

How the results depend on the processing

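The median log2 fold change of the 8 genes stayed between 0.28 and 0.44 under all 17 alternatives, and the log2 fold changes of the 8 genes and of Crebbp kept their sign wherever they could be computed. Single genes named beside these were not followed through the alternatives. The number of the 8 past the threshold was 2 as described, and 1 with DESeq2, with limma-voom, with at least 10 counts in every library (which left 6 of the 8, without Zfp54 and Zfp820) and with GC and length offsets. Leaving out each library in turn gave 0 to 3 of the 8, with 0 when Control replicate 3 or either of CBP-ifKO replicates 2 and 3 was omitted. Under those omissions, in that order, 79, 82 and 76 of all genes passed as higher and 467, 416 and 450 as lower. As described, 252 and 897 did. Omission of each library in turn gave 0 to 4 of the other chromosome 17 Zfp genes (3 as described), 4 to 26 of the Zfp genes elsewhere (22), 0 to 1 of the co-repressor genes (0), 0 to 3 of the neighbouring genes (2) and 498 to 1326 of all genes (1149). The other chromosome 17 Zfp genes past the threshold numbered 5 with library totals only and 5 without a filter. Those elsewhere numbered 9 with DESeq2, 46 with library totals only and 37 with the block combined with the offsets, and the co-repressor genes 2 and 1 under the last 2 of these. With GC and length offsets 1 neighbouring gene passed. Over all genes, 1862 passed with the block combined with the offsets, and with library totals only 514 were higher and 667 lower, against 252 and 897 as described. The causes of these shifts were not tested.

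The deviations of same-numbered libraries from their group means correlated at 0.0769, 0.0369 and 0.00216. Differently numbered libraries were not correlated for reference, so whether the replicate numbers pair samples was not settled. A replicate block left 2 of the 8 genes past the threshold, Zfp51 and Zfp54, with a median of 0.36, and 1210 genes in all. With 40-base in place of 50-base words the median share of unique words was 95.9% in place of 97.7%, and a relaxed finger spacing found 110 fingers in place of 109. Depth limits Zfp54 and Zfp820 most, with 35 and 28 counts summed over the Control libraries.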
